A study of Mus musculus with 16 samples.

Results

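The nuclear oxidative phosphorylation genes encode the subunits of the mitochondrial electron transport chain and ATP synthase that are made in the cytosol and imported. They were taken as the symbols of the gene table that begin with Ndufa, Ndufb, Ndufc, Ndufs, Ndufv, Uqcr, Atp5 or Cox4 to Cox8, without pseudogenes and without the Ndufaf assembly factors, that held at least 100 UMIs (unique molecular identifiers, 1 per captured transcript) over all libraries. Of 48440 genes in the table, 81 carried such a symbol and 78 reached the minimum, 38 of them named for complex I, 8 for complex III, 15 for complex IV and 17 for complex V. The symbols left out were Cox7b2, Cox8b and Cox8c. Members are counted in the complex that their symbol names, so Ndufa4, a subunit of complex IV, and its paralog Ndufa4l2 stand under complex I. The naming rule reads no difference between groups, but the members were chosen with earlier results of these data known.

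Complex I (NADH dehydrogenase) passes electrons from NADH to ubiquinone, complex III (cytochrome bc1) from ubiquinol to cytochrome c, and complex IV (cytochrome c oxidase, COX) from cytochrome c to oxygen. These complexes pump protons across the inner membrane, and complex V (ATP synthase) uses the gradient to make ATP. The complexes named here combine nuclear subunits with a small set encoded by mitochondrial DNA, so that 2 genomes contribute to each. Oxidative phosphorylation and glycolysis are the main routes by which lymph node stromal cells, like other cells, make ATP.

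The study asked how a growing tumour changes the stroma of the lymph node that drains it. MC38 is a colon carcinoma line of the mouse. C57BL/6 mice, sex-matched and 8 weeks old, were given 500000 of its cells, alive or fixed and so unable to grow, under the skin of 1 flank, and on day 12 the draining and the contralateral non-draining inguinal nodes were digested and enriched for cells with podoplanin (PDPN), a surface protein of fibroblastic reticular and lymphatic endothelial cells. Single-cell RNA was measured in 3 live draining, 3 live non-draining, 3 fixed draining and 3 fixed non-draining libraries, and in 4 libraries from naive mice. The letters A to D only name the libraries. By the methods, the nodes came from 3 mice with live and 3 with fixed cells, draining and non-draining from the same animals. Which libraries share a mouse is not stated, so they were not paired, and the animals behind the naive libraries are not stated, so there p-values measure a spread that may be technical.

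The 16 libraries held 68741 barcodes, 50386 of which passed the filters on detected genes and mitochondrial UMIs, with medians of 3421 to 5098 UMIs per cell. Marker genes placed 33430 cells in classes, none of whose markers is among the 78 genes. The names used below stand for cells that passed a gate: marginal (MRC, 1341 cells), T-zone (TRC, 3049 cells) and medullary (MedRC, 2778 cells) reticular cells, floor (fLEC, 2187 cells) and ceiling (cLEC, 3419 cells) lymphatic endothelial cells of the subcapsular sinus, B cells (4137), T cells (1413), macrophages (2500) and dendritic cells (DC, 3355). Defining markers were found in the gated cells: Tnfsf11 had a UMI in 87.8% of MRCs and 7.97% of other gated cells, and Ccl19 in 97.9% of TRCs and 23.6% of the others. The MRC markers Cxcl13 and Ch25h are also known from B-zone reticular cells, which the MRC gate can hold. The gate called macrophages here was set for macrophages and monocytes together, and C1qa had a UMI in 59.1% of its cells. No doublet caller was run, but cells with strong markers of a second lineage were left out. Pericyte and smooth muscle markers were an exception: they were not read in MRCs, TRCs and MedRCs, so cells with them were kept. With these markers read, the gate held 72 to 98 MRCs in live draining and 4 to 8 in live non-draining libraries. Without them it held 158 to 260 MRCs in live draining and 22 to 59 in live non-draining libraries. Any 2 libraries shared at most 0.393% of the barcodes of the smaller one.

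The level summed over the members tested in a class was read in every cell class first. Members too rare to test were left out of the sum. These were 3 in MRCs, 6 in T cells, 9 in plasma cells and 18 in mast cells, so the sums cover unlike sets. Levels of members are in CPM, the UMIs of a gene scaled to the UMIs of all genes tested in that class and library. TMM factors, which adjust libraries for composition, were applied within each class. Summed levels of cell type markers are scaled to all UMIs of the class in the library, without these factors. The median over libraries was highest in mast cells (25644 CPM), followed by fLECs (18169.9 CPM), T cells (17510.0 CPM), macrophages (16944 CPM), cLECs (16511 CPM), MRCs (15779 CPM) and cortical LECs (15506 CPM). DCs (15133 CPM), TRCs (14399.8 CPM), blood endothelial cells (13853 CPM), MedRCs (12658 CPM), B cells (11582 CPM) and plasma cells (9200.0 CPM) were lower. The naive libraries alone gave fLECs 18259.7 ± 1294 CPM, cLECs 16376 ± 336 CPM, MRCs 15299.6 ± 196 CPM, TRCs 13523 ± 474 CPM and MedRCs 12603 ± 500.1 CPM (SD, n = 4 each). The ranges of neighbours in this order overlapped over the 16 libraries, except that all mast cell values lay above those of fLECs. The genes tested numbered 1821 in mast cells, 3879 in plasma cells, 9615 in MRCs and 12004 in TRCs, so the levels of classes rest on unlike totals. The classes share libraries and were not tested against each other here. CPM is a share of the UMIs of the genes tested, so that fewer transcripts of these genes cannot be told apart from more transcripts of others.

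**Figure D1:**
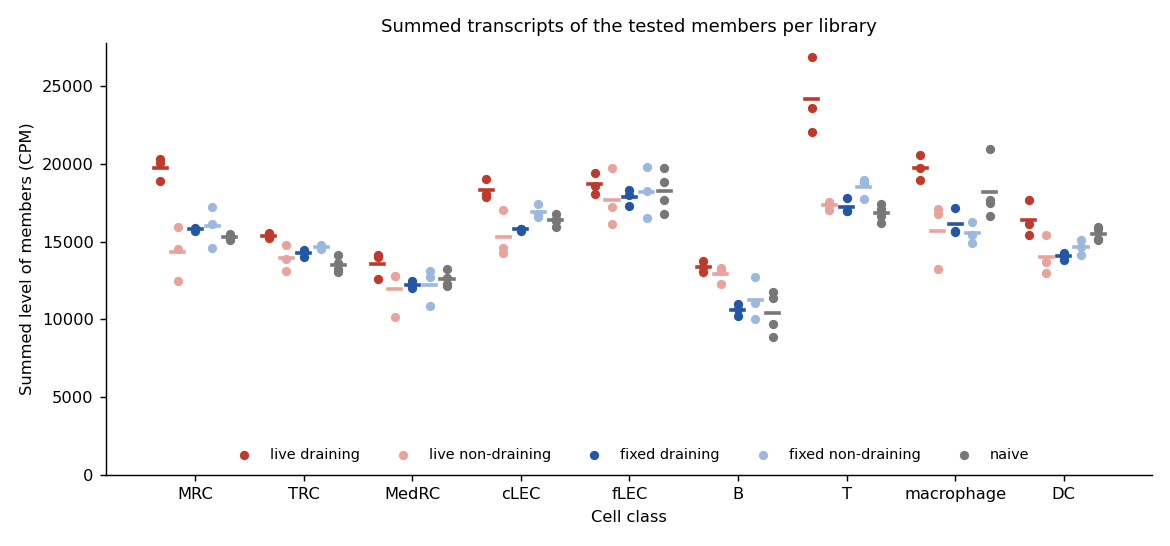
Summed level of the members tested in each class (CPM), by cell class and group, each point 1 library. In MRCs the live draining libraries reached 18915 to 20314 CPM and no other library of the class passed 17220.4 CPM.

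Each class was compared between draining and non-draining nodes on UMIs summed per library (edgeR quasi-likelihood test, Benjamini-Hochberg adjustment over all genes tested in the class, called at an adjusted p under 0.05). In mice with live cells the genes that were called were nearly all higher in the draining node. In MRCs 43 of 75 members tested rose and 0 fell, where 8.17% of all genes tested rose and 6.59% fell. In cLECs 37 of 74 rose and 0 fell (9.12% of all genes rose and 8.41% fell), and in T cells 31 of 72 rose and 0 fell (3.81% of all genes rose and 1.72% fell).

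The other classes had fewer calls. The members that rose were 10 of 75 in TRCs (3.65% of all genes), 8 of 74 in MedRCs (4.69%), 6 of 73 in fLECs (10.7%), 8 of 74 in macrophages (2.53%) and 9 of 74 in DCs (2.46%). In fLECs the share of members, 6 of 73, was below that of all genes tested. In B cells 0 of 72 were called, with 2 at an unadjusted p under 0.05 and 1.36% of all genes called. Summed levels in B cells were 13037 to 13745 CPM in live draining and 12302 to 13301 CPM in live non-draining libraries. Naive libraries held 8901 to 11781 CPM, fixed draining 10252 to 10989 CPM and fixed non-draining 10053 to 12714 CPM. A difference shared by both live nodes is not read by the draining comparison, and live against naive libraries was not tested. The median log2 fold change of the members tested was 0.51 in T cells, 0.44 in MRCs, 0.34 in macrophages, 0.25 in cLECs, 0.23 in DCs, 0.19 in MedRCs, 0.14 in TRCs, 0.04 in fLECs and 0.04 in B cells, while the median of all genes tested lay between -0.03 and 0.01 in these classes.

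Atp5g1, one of the genes for the membrane c-ring of ATP synthase, was called higher in 7 of the 9 classes, all but fLECs and B cells. Atp5f1 (a subunit of the peripheral stalk of ATP synthase) and Cox5a (a nuclear COX subunit) were called in 5 classes, 14 members in 4, 13 in 3, 12 in 2 and 16 in 1. The remaining 20 members rose in none, 2 of which were tested in no class. Of the 76 members tested in any class, 39.5% were called higher in at least 3, where 3.55% of all genes tested were. Most members were tested in all 9 classes. The 14550 genes tested in any class include some tested in fewer, since single classes tested 7488 to 12004, so these shares rest on unlike bases. Between MRCs and cLECs, 27 members were called in both, which is 62.8% of the 43 in MRCs and 73% of the 37 in cLECs. Of all genes called higher, 314 were called in both, which is 39.9% of those in MRCs and 29.3% of those in cLECs. In both classes these included Uqcrb, Uqcrc1, Uqcrc2, Uqcrfs1 and Uqcrq of complex III.

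**Figure D2:**
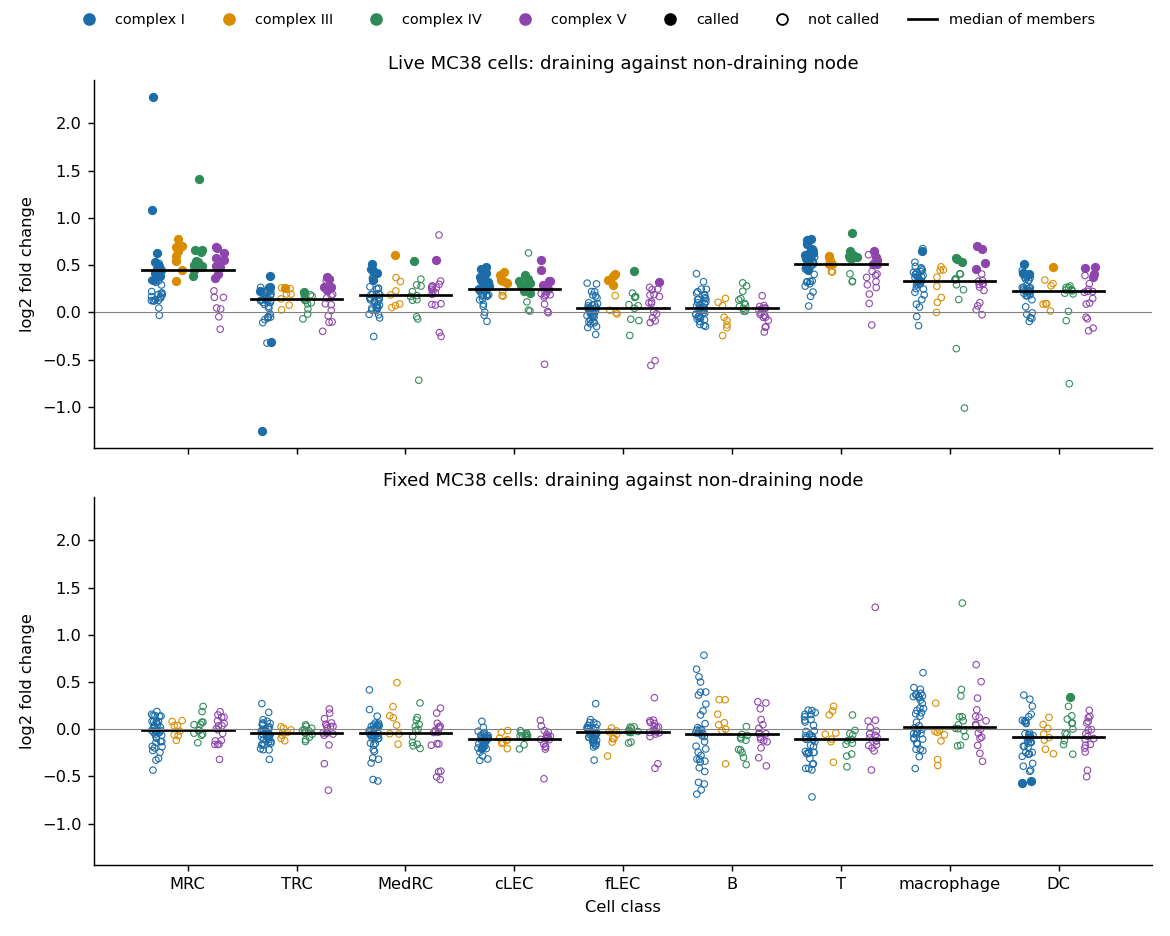
Log2 fold change of each tested member (points, coloured by complex) in each cell class, with the median as a bar. The panels show live draining against live non-draining nodes and fixed draining against fixed non-draining nodes. The live comparison is mostly positive in MRCs (median 0.44), T cells (0.51) and cLECs (0.25), and the fixed comparison has medians of -0.01, -0.11 and -0.10.

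In MRCs, which lie under the subcapsular sinus, all 8 members of complex III and all 12 tested members of complex IV rose, as did 10 of 17 of complex V and 13 of 38 of complex I. Ndufa4 and Ndufa4l2 are among the 13, counted by symbol. The summed level was 20055, 20314 and 18915 CPM in live draining libraries, against 15960.1, 14507 and 12488 CPM in live non-draining libraries. The lowest live draining library lay above the highest live non-draining one.

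Among the members of complex V, Atp5g1 (chr11:96068852-96075670, GRCm38) had 263, 269 and 246 CPM in live draining libraries, against 169.8, 173 and 132 CPM in live non-draining libraries. Its log2 fold change was 0.68 ± 0.12 (SE, adjusted p = 0.00013). Atp5d (chr10:80138632-80145818), the delta subunit of the central stalk, had 289.7, 291 and 279 CPM in live draining libraries, against 211, 166 and 123 CPM in live non-draining libraries, a log2 fold change of 0.69 ± 0.13 (SE, adjusted p = 0.000292). For both genes every live draining library was higher than every live non-draining one, and live non-draining C was the lowest of these 6 libraries.

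In complexes III and IV, Uqcrq (chr11:53427922-53430831), a small subunit of cytochrome bc1, had 336, 354 and 328 CPM in live draining libraries, against 231, 239.6 and 193 CPM in live non-draining libraries, a log2 fold change of 0.60 ± 0.12 (SE, adjusted p = 0.000324). Cox5b (chr1:36691449-36693681), a nuclear subunit of COX, had 379.5, 383 and 348 CPM in live draining libraries, against 284, 213 and 165 CPM in live non-draining libraries, a log2 fold change of 0.66 ± 0.13 (SE, adjusted p = 0.000415). The groups did not overlap for either gene. Uqcrc1, the core 1 protein of complex III, had 141, 133 and 147 CPM in live draining libraries, against 94.7, 59.9 and 80.1 CPM in live non-draining libraries (log2 fold change 0.78 ± 0.16 SE, adjusted p = 0.000716), and Uqcrb, another small subunit, had 337, 330.4 and 329 CPM in live draining libraries, against 234, 196 and 156 CPM in live non-draining libraries (log2 fold change 0.70 ± 0.13 SE, adjusted p = 0.000142). These too were separate in all 6 libraries.

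The steepest rises among members of moderate level were in Cox4i2 and Ndufa10. Cox4i2 (chr2:152754173-152765037), the alternative form of COX subunit 4, had 99.7, 117 and 65.3 CPM in live draining libraries, against 46.5, 39.9 and 4.71 CPM in live non-draining libraries, a log2 fold change of 1.41 ± 0.30 (SE, adjusted p = 0.000847). Ndufa10 (chr1:92439010-92473860), an accessory subunit of complex I, had 144, 164 and 131 CPM in live draining libraries, against 62.5, 83.2 and 66 CPM in live non-draining libraries (log2 fold change 1.09 ± 0.18 SE, adjusted p = 3.73e-05). Live draining libraries were above all live non-draining ones in both genes, and Cox4i2 was far lower in live non-draining C than in A and B. Ndufa4l2, a paralog of the COX subunit Ndufa4, was rare: 18, 32.7 and 17.2 CPM in live draining libraries, against 5.36, 6.65 and 0 CPM in live non-draining libraries (log2 fold change 2.28 ± 0.68 SE, adjusted p = 0.0196), and its call was lost without live draining B, live non-draining A or live non-draining C.

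Leaving out single libraries gave 31 to 44 called members in MRCs. The live non-draining libraries held only 22 to 59 MRCs, against 158 to 260 in the live draining ones, and median UMIs per MRC were 11579 to 13742 in live draining, against 8178 to 11604 in live non-draining libraries. The summed level of 8 pericyte and smooth muscle markers in MRCs was 1889 to 1947 CPM in live draining libraries, against 2231 to 2747 CPM in live non-draining libraries. The part of these differences in the result was not tested.

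**Figure D3:**
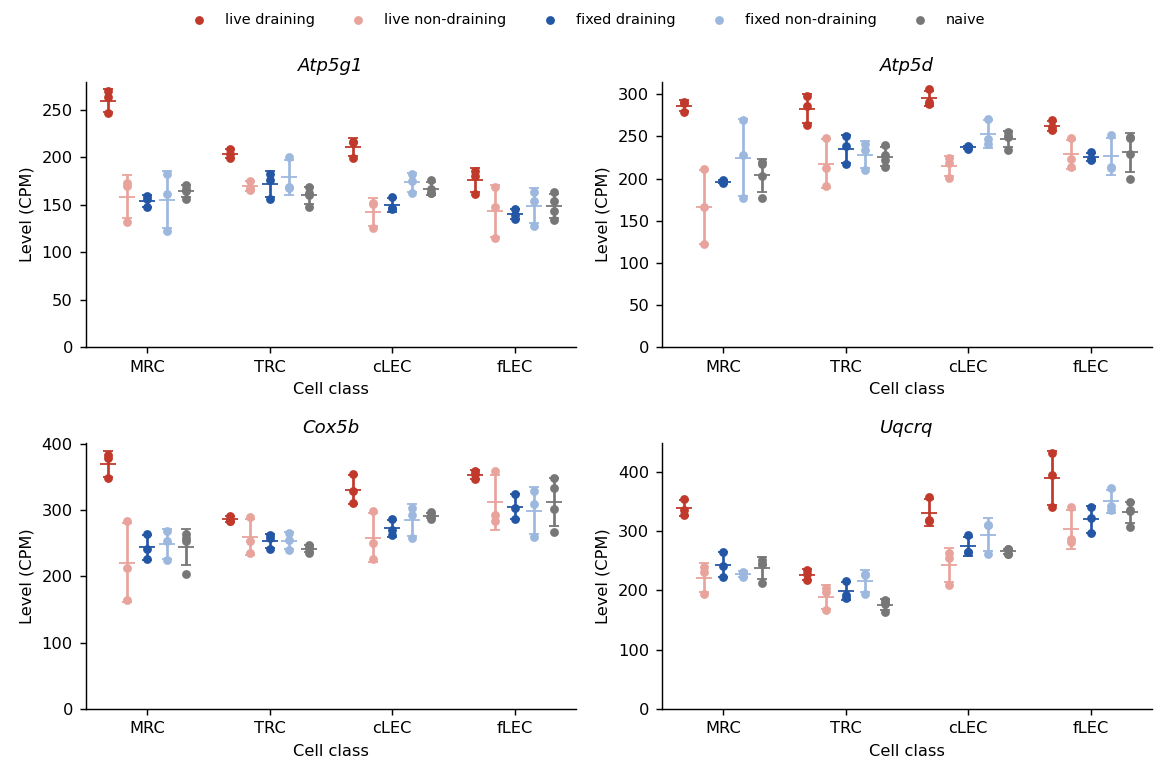
CPM of Atp5g1, Atp5d, Cox5b and Uqcrq in each library of MRCs, TRCs, cLECs and fLECs, by group, each point 1 library. In MRCs the live draining libraries of Atp5g1 lie between 246 and 269 CPM, above all other groups.

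TRCs, the reticular cells of the T-cell zone, had 10 members that rose and 2 that fell (4.57% of all genes fell). The share of members that fell, 2 of 75, was below that of all genes. Complex V held 5 of the 10. Atp5o, the subunit that joins the stalk to the catalytic head, had 195, 201 and 195 CPM in live draining libraries, against 154, 143 and 156 CPM in live non-draining libraries (log2 fold change 0.38 ± 0.09 SE, adjusted p = 0.00327). Atp5d had 264, 287 and 298 CPM in live draining libraries, against 249, 213 and 191 CPM in live non-draining libraries (log2 fold change 0.36 ± 0.08 SE, adjusted p = 0.00362), and Atp5g1 209, 203 and 199 CPM in live draining libraries, against 167, 175 and 165 CPM in live non-draining libraries (log2 fold change 0.27 ± 0.08 SE, adjusted p = 0.027). Groups were separate in these 3 genes, with smaller gaps than in MRCs. Ndufs4, an accessory subunit of complex I, had 80.4, 84.1 and 89.2 CPM in live draining libraries, against 65.8, 71.7 and 55.4 CPM in live non-draining libraries (log2 fold change 0.39 ± 0.10 SE, adjusted p = 0.0134). Uqcrq missed the threshold at 0.25 ± 0.08 (SE, adjusted p = 0.0504) and Cox5b at 0.12 ± 0.07 (SE, adjusted p = 0.355).

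The 2 members that fell in TRCs were both among those with large rises in MRCs. Ndufa10 had 100.4, 92.9 and 105 CPM in live draining libraries, against 135, 121 and 109.9 CPM in live non-draining libraries (log2 fold change -0.32 ± 0.09 SE, adjusted p = 0.0199), with the live draining libraries all lower. Ndufa4l2 had 9.55, 2.6 and 9.76 CPM in live draining libraries, against 21.2, 20 and 8.45 CPM in live non-draining libraries (log2 fold change -1.26 ± 0.35 SE, adjusted p = 0.0156), and its groups overlapped, since live non-draining C lay below live draining A and C. With pericyte and smooth muscle genes read in the gate, an alternative chosen after the data were seen, 0 members were called in TRCs. The count was also 6 without live draining A, 4 without live draining B, 6 without live non-draining B and 4 without live non-draining C.

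The draining effects of MRCs and TRCs were compared in 1 fit, added after the data were seen. The live effect was larger in MRCs for 12 of 76 members and smaller for 0, where 6.05% of all genes were called in either direction. The 12 were Ndufa10 (difference of log2 fold changes 1.43), Ndufa4l2 (3.63), Uqcr10 (0.65), Cox5b (0.57), Cox7c, Cox8a, Cox7a2, Ndufa1, Cox6c, Uqcrb, Cox7b and Uqcrc1. At an unadjusted p under 0.05 there were 33. The fixed effect differed in 0 members (0% of all genes), and 0 at an unadjusted p under 0.05.

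In MedRCs, the reticular cells of the medulla, 8 members rose. Their summed level overlapped between live draining (12617 to 14147 CPM), live non-draining (10183 to 12828 CPM) and naive libraries (12181 to 13271.5 CPM). Uqcrq had 217, 182 and 234 CPM in live draining libraries, against 149, 148 and 119 CPM in live non-draining libraries (log2 fold change 0.60 ± 0.12 SE, adjusted p = 0.000952), and Atp5g1 had 202, 157 and 197 CPM in live draining libraries, against 139, 108 and 124 CPM in live non-draining libraries (log2 fold change 0.56 ± 0.13 SE, adjusted p = 0.00474). Cox5a had 129.7, 128 and 144 CPM in live draining libraries, against 106, 96.4 and 69.5 CPM in live non-draining libraries (log2 fold change 0.55 ± 0.13 SE, adjusted p = 0.00727). In all of these genes the groups were separate, by the smallest margin in live draining B. Ndufs4 had 99.1, 107 and 114 CPM in live draining libraries, against 75.6, 69.8 and 76.5 CPM in live non-draining libraries (log2 fold change 0.51 ± 0.12 SE, adjusted p = 0.00692), while Atp5d (log2 fold change 0.21 ± 0.11 SE, adjusted p = 0.256) and Cox5b (log2 fold change 0.29 ± 0.11 SE, adjusted p = 0.125) missed the threshold. The count was 4 without live draining A and 3 without live non-draining C.

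Ceiling LECs line the outer wall of the subcapsular sinus, where afferent lymph arrives. Their 37 rises were spread over complex I (17 of 37 tested), complex III (5 of 8), complex IV (8 of 12) and complex V (7 of 17). Ndufa4 is among the 17, counted by symbol. The summed level was 18080.2, 17886 and 19036 CPM in live draining libraries, against 17046, 14611 and 14253 CPM in live non-draining libraries, with all live draining libraries above all live non-draining ones.

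Atp5g1 had 216, 199 and 216 CPM in live draining libraries, against 151, 151 and 125 CPM in live non-draining libraries in cLECs, a log2 fold change of 0.55 ± 0.08 (SE, adjusted p = 1.55e-05). Atp5d had 288, 306 and 291 CPM in live draining libraries, against 225, 219 and 201 CPM in live non-draining libraries (log2 fold change 0.45 ± 0.07 SE, adjusted p = 4.48e-05). Both genes were separate in all 6 libraries. Uqcrq had 317, 319 and 357 CPM in live draining libraries, against 264, 209.7 and 255 CPM in live non-draining libraries (log2 fold change 0.42 ± 0.08 SE, adjusted p = 0.000488), and Cox5b had 329, 310.2 and 354 CPM in live draining libraries, against 299, 250.1 and 227 CPM in live non-draining libraries (log2 fold change 0.33 ± 0.09 SE, adjusted p = 0.00586). For Cox5b the live non-draining libraries spread widely, with A close to the live draining range, and its call was lost without live non-draining C.

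Of the complex I accessory subunits in cLECs, Ndufb5 had 210.4, 217 and 214 CPM in live draining libraries, against 177, 132 and 137 CPM in live non-draining libraries (log2 fold change 0.49 ± 0.10 SE, adjusted p = 0.000491), and Ndufv3 had 144, 144 and 140.3 CPM in live draining libraries, against 118, 102 and 86 CPM in live non-draining libraries (log2 fold change 0.46 ± 0.10 SE, adjusted p = 0.00114). The live draining libraries were close to each other and above the live non-draining ones. Without live non-draining C, 15 members were called in cLECs in place of 37. Median UMIs per cell were 10032 to 12102 in live draining, against 8936 to 9786 in live non-draining libraries, and the summed level of 7 blood endothelial markers was 245 to 272 CPM in live draining libraries, against 70.8 to 113 CPM in live non-draining libraries. Their part in the result was not tested.

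Floor LECs form the inner wall of the same sinus. Their 6 called members included 4 of the 8 of complex III and 0 of 37 of complex I. Their summed level overlapped between live draining (18098 to 19445 CPM), live non-draining (16120 to 19764 CPM) and naive libraries (16770 to 19740 CPM). Cox5a had 259, 255 and 244 CPM in live draining libraries, against 206, 186 and 161 CPM in live non-draining libraries (log2 fold change 0.44 ± 0.10 SE, adjusted p = 0.0015), and Uqcrfs1, the Rieske iron-sulfur protein of complex III, had 95.1, 99.3 and 92.6 CPM in live draining libraries, against 75.9, 76 and 63.3 CPM in live non-draining libraries (log2 fold change 0.41 ± 0.12 SE, adjusted p = 0.0134). Uqcrc1 had 99.9, 92.6 and 115 CPM in live draining libraries, against 90, 74.6 and 59.6 CPM in live non-draining libraries (log2 fold change 0.39 ± 0.12 SE, adjusted p = 0.0255). In these genes every live draining library was the higher. Uqcrq had 432, 395 and 342 CPM in live draining libraries, against 341, 282 and 287 CPM in live non-draining libraries (log2 fold change 0.35 ± 0.10 SE, adjusted p = 0.00874), with live draining C just above live non-draining A. Atp5g1 (log2 fold change 0.26 ± 0.11 SE, adjusted p = 0.1), Atp5d (log2 fold change 0.19 ± 0.09 SE, adjusted p = 0.173) and Cox5b (log2 fold change 0.16 ± 0.10 SE, adjusted p = 0.294) missed the threshold. The count was 3 without live draining A, 12 without live non-draining A and 3 without live non-draining C. Summed pericyte and smooth muscle markers in fLECs were 365 to 453 CPM in live draining libraries, against 148 to 284 CPM in live non-draining libraries, and their part in the result was not tested.

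The live effect was larger in cLECs than in fLECs for 3 of 74 members and smaller for 0, in a fit added after the data were seen in which 6.97% of all genes were called. The share of members called, 3 of 74, was below that of all genes. Those called were the complex I accessory subunits Ndufb5 (difference 0.57), Ndufa11 (0.46) and Ndufv3 (0.44). At an unadjusted p under 0.05 there were 15, and the fixed effect differed in 0 members, as in 0% of all genes.

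In T cells the summed level was 22052, 23594 and 26917 CPM in live draining libraries, against 17576, 17044 and 17389 CPM in live non-draining libraries, with no overlap. Cox7a2l, a COX7A-related protein, had 551, 481 and 521 CPM in live draining libraries, against 279.6, 288 and 305 CPM in live non-draining libraries (log2 fold change 0.84 ± 0.14 SE, adjusted p = 0.000462). Ndufv3 had 305, 313 and 369 CPM in live draining libraries, against 203, 201 and 172 CPM in live non-draining libraries (log2 fold change 0.77 ± 0.14 SE, adjusted p = 0.000921). All live draining libraries were higher in both genes, and both calls held under every alternative tried. Ndufa12, a complex I accessory subunit, had 121, 145 and 216 CPM in live draining libraries, against 93.7, 90.7 and 93.1 CPM in live non-draining libraries (log2 fold change 0.77 ± 0.20 SE, adjusted p = 0.0196), and Ndufv2, an iron-sulfur subunit of complex I, had 137, 181 and 176 CPM in live draining libraries, against 109, 87.4 and 96 CPM in live non-draining libraries (log2 fold change 0.72 ± 0.18 SE, adjusted p = 0.0145). The highest value of Ndufa12 was in live draining C. Cox5b (log2 fold change 0.61 ± 0.14 SE, adjusted p = 0.00846) and Atp5g1 (log2 fold change 0.55 ± 0.15 SE, adjusted p = 0.0266) also rose.

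The T cells of live draining libraries differed from the others in several measured ways. The 9 macrophage markers together were 1289 to 2202 CPM in live draining libraries, against 192 to 354 CPM in live non-draining libraries in T cells, where 0 of the 9 were at 0 in live draining libraries and 2 (Adgre1 and Fcgr1) in live non-draining libraries. Median UMIs per T cell were 3982 to 6863 in live draining, against 2729 to 3853 in live non-draining libraries, and the median share of mitochondrial UMIs in percent was 3.58 to 5.05 in live draining, against 5.66 to 6.54 in live non-draining libraries. The part of these in the result was not tested. The count of called members was 20 without live draining B, 6 without live draining C, 18 without live non-draining A, 9 without live non-draining B, 15 without live non-draining C and 3 with no upper limit on detected genes.

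Macrophages had 8 rises, 4 in complex V, 3 in complex IV and 1 in complex I. Their summed level was 18960 to 20616 CPM in live draining and 13267 to 17100.5 CPM in live non-draining libraries. Naive libraries held 16670 to 21001 CPM in macrophages and overlapped the live draining ones. Atp5o had 273, 252 and 257 CPM in live draining libraries, against 190.1, 158 and 119 CPM in live non-draining libraries (log2 fold change 0.71 ± 0.16 SE, adjusted p = 0.0101), and Atp5g1 had 275, 263 and 290.2 CPM in live draining libraries, against 200.2, 187 and 123 CPM in live non-draining libraries (log2 fold change 0.67 ± 0.15 SE, adjusted p = 0.00872). Live non-draining C was the lowest of these 6 libraries in both, and the groups were separate. Ndufab1, the mitochondrial acyl carrier protein, had 119.5, 121 and 98.9 CPM in live draining libraries, against 84.9, 75.3 and 47.9 CPM in live non-draining libraries (log2 fold change 0.65 ± 0.18 SE, adjusted p = 0.0307), and Cox7a2 had 425, 367 and 387 CPM in live draining libraries, against 294, 309 and 185 CPM in live non-draining libraries (log2 fold change 0.57 ± 0.16 SE, adjusted p = 0.0404). The count was 2 without live draining A, 5 without live draining C, 5 without live non-draining B and 1 without live non-draining C. Summed fibroblastic markers in macrophages were 247 to 259 CPM in live draining libraries, against 50.1 to 177 CPM in live non-draining libraries, and their part in the result was not tested.

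In DCs 9 members rose, 4 each in complexes I and V and 1 in complex III. Their summed level was 15408 to 17674 CPM in live draining and 12965 to 15406 CPM in live non-draining libraries. Naive libraries held 15129 to 15972 CPM in DCs and overlapped the live draining ones. Atp5j, coupling factor 6 of ATP synthase, had 262, 254 and 263 CPM in live draining libraries, against 222, 169.7 and 157 CPM in live non-draining libraries (log2 fold change 0.48 ± 0.11 SE, adjusted p = 0.0156). Uqcrc1 had 84.3, 103 and 111 CPM in live draining libraries, against 73.4, 71.1 and 67.1 CPM in live non-draining libraries (log2 fold change 0.48 ± 0.14 SE, adjusted p = 0.0432), and Ndufa12 had 71.7, 72.8 and 86.6 CPM in live draining libraries, against 60, 52.1 and 44.1 CPM in live non-draining libraries (log2 fold change 0.52 ± 0.15 SE, adjusted p = 0.0472). The groups were separate in each. With a stricter gate or a limit of 10% mitochondrial UMIs 0 members were called, and the count was 5 without naive C, 1 without live draining C, 15 without live non-draining A, 1 without live non-draining B, 1 without live non-draining C and 5 without fixed draining C. Of all genes, 40 of 6724 were called in cortical LECs, 1 of 5240 in blood endothelial, 76 of 3879 in plasma and 10 of 1821 in mast cells. The median log2 fold change of members in these classes was 0.31, 0.38, 0.39 and 0.17 in this order. Positive values were 64 of 70, 64 of 70, 65 of 69 and 42 of 60. Cortical LECs, blood endothelial, plasma and mast cells together gave 2 rises in 269 tests of members, both in cortical LECs, where 0.446% of all genes rose. The count over these classes was 0 without naive A, naive D, live draining A, live draining C, live non-draining B, live non-draining C, fixed draining A, fixed draining B, fixed draining C or fixed non-draining B and 1 without naive C or fixed non-draining C.

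Fixed MC38 cells served as an inoculum that cannot grow. Between fixed draining and fixed non-draining nodes 0 members were called in MRCs, TRCs, MedRCs, fLECs, cLECs, B cells, T cells and macrophages. The share of all genes called was 0.0312% in MRCs, 0.0333% in TRCs, 0.0457% in MedRCs, 0.126% in fLECs, 0.281% in cLECs, 0.12% in B cells, 0% in T cells and 2.56% in macrophages. At an unadjusted p under 0.05 there were 1 members in MRCs, 4 in TRCs, 5 in MedRCs, 2 in fLECs, 16 in cLECs, 6 in B cells, 5 in T cells and 9 in macrophages. In DCs Ndufs7, an iron-sulfur subunit of complex I, fell (log2 fold change -0.57 ± 0.15 SE, adjusted p = 0.0202), as did Ndufa12 (log2 fold change -0.55 ± 0.16 SE, adjusted p = 0.0325), and Cox5a rose (log2 fold change 0.34 ± 0.10 SE, adjusted p = 0.033), where 6.28% of all genes were called. The count in DCs was 0 without fixed draining B, fixed draining C or fixed non-draining C. In MRCs Atp5g1 had 159, 147 and 156 CPM in fixed draining libraries, against 161, 123 and 182 CPM in fixed non-draining libraries, and the naive libraries had 166, 156, 164 and 171 CPM. These ranges overlapped.

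The gap between the inocula was tested as the live minus the fixed log2 fold change. In cLECs it was larger with live cells for 40 of 74 members and smaller for 0, where 11.4% of all genes were called. Atp5g1 differed by 0.76 ± 0.12 (SE, adjusted p = 3.51e-05), Ndufv3 by 0.74 ± 0.14 (SE, adjusted p = 0.000371), Ndufa11 by 0.64 ± 0.12 (SE, adjusted p = 0.000611) and Atp5d by 0.54 ± 0.10 (SE, adjusted p = 0.000617). Ndufa11, a membrane subunit of complex I, had 345, 370.5 and 369.6 CPM in live draining libraries, against 311, 242 and 241 CPM in live non-draining libraries and 308, 268 and 277 CPM in fixed draining libraries, against 349, 332 and 304 CPM in fixed non-draining libraries. The live groups were separate, while fixed draining A lay above fixed non-draining C. The median of the fixed effect over the 74 members was -0.10, with 4 positive. The count of 40 was 22 without live non-draining C, 26 without fixed draining A and 23 without fixed non-draining A.

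In MRCs 7 of 75 members had a larger live effect (3.87% of all genes called), with 35 at an unadjusted p under 0.05. They included Atp5d (difference 0.86 ± 0.21 SE, adjusted p = 0.0132), Ndufb5 (difference 0.83 ± 0.19 SE, adjusted p = 0.00886) and Uqcrb (difference 0.77 ± 0.20 SE, adjusted p = 0.0173). The count was 3 without live draining B, live non-draining C, fixed draining B, fixed non-draining A or fixed non-draining C, 16 without live non-draining A, 13 without fixed non-draining B, 18 by DESeq2 and 29 with no upper limit on detected genes. The fixed non-draining and live non-draining libraries both held few MRCs.

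Other classes had fewer members that differed. There were 7 in T cells (1.36% of all genes), 7 in DCs (4.78%), 4 in fLECs (8.48%), 2 in MedRCs (2.69%) and 3 in macrophages (3.22%), all with larger live effects except Cox4i2 in macrophages. The share of members in fLECs, 4 of 73, was below that of all genes, and in MedRCs, 2 of 74, and macrophages, 3 of 74, it was near it. In T cells, the count was 3 without naive A, live non-draining A or fixed draining C, 2 without naive C, live non-draining C or fixed non-draining C, 4 without naive D or fixed non-draining B and 1 without live draining B, live draining C, live non-draining B, fixed draining A, fixed draining B or fixed non-draining A. In DCs, the count was 4 without live draining C, live non-draining B, fixed draining B, fixed non-draining B or fixed non-draining C and 17 without live non-draining A. In fLECs, the count was 1 without live draining A, live non-draining C or fixed non-draining A, 8 without live non-draining A and 2 without live non-draining B or fixed draining C. In MedRCs, the count was 0 without live draining A, live non-draining C or fixed non-draining B, 5 without live draining B, 1 without live draining C, fixed draining B, fixed draining C or fixed non-draining A and 4 without live non-draining A or fixed non-draining C. In macrophages, the count was 1 without live draining A, live draining B, live non-draining C, fixed draining A, fixed draining B, fixed non-draining A or fixed non-draining C. In TRCs (2.55% of all genes) and B cells (0.169% of all genes) 0 members were called by edgeR, with 20 in TRCs and 6 in B cells at an unadjusted p under 0.05, and DESeq2 gave a count of 0 in TRCs and 0 in B cells. By edgeR the count in TRCs was 7 without live non-draining A and 1 without live non-draining B.

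Some subunits of complex IV have alternative forms, and Cox4i2 and Ndufa4l2 are known as the forms linked to low oxygen. As the median over libraries, Cox4i2 made up 9.25% of the UMIs of Cox4i1 and Cox4i2 in macrophages, 4.57% in MRCs, 0.47% in MedRCs, 0.14% in TRCs, 0.095% in fLECs, 0.021% in cLECs and 0.061% in DCs, and 19.6% in pericytes and smooth muscle cells. Among macrophages it was 3.72% to 4.95% in live draining, against 7.47% to 11.4% in live non-draining libraries, 8.37% to 17.3% in fixed draining, against 0.53% to 7.51% in fixed non-draining libraries, and 10.5% to 22.5% in naive libraries. The ranges of draining and non-draining libraries did not overlap with either inoculum, and lay in opposite order. Macrophages and monocytes were not separated in this class, and the part of their mix in the shares was not tested.

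As CPM, Cox4i2 in macrophages was 49.5, 55.8 and 44.6 CPM in live draining libraries, against 117, 114 and 63.9 CPM in live non-draining libraries. With fixed cells it was 76.5, 99.6 and 172 CPM in fixed draining libraries, against 52.8, 63.9 and 4.77 CPM in fixed non-draining libraries. The live effect was -1.01 ± 0.31 (SE, adjusted p = 0.0566), the fixed effect 1.34 ± 0.42 (SE, adjusted p = 0.1) and their difference -2.35 ± 0.52 (SE, adjusted p = 0.0117). Only the difference passed the threshold, and without live non-draining A, or with no upper limit on detected genes, it did not. In MRCs the share of Cox4i2 was 6.5% to 10.2% in live draining, against 0.83% to 5.36% in live non-draining libraries. Ndufa4l2 made up a median of 60.8% of the UMIs of Ndufa4 and Ndufa4l2 in pericytes and smooth muscle cells, 13.3% in perivascular reticular cells (PRC, 9 libraries with at least 10 cells), 3.76% in TRCs, 1.51% in MRCs, 1.02% in MedRCs, 0% in cLECs and 0% in fLECs. In PRCs it was 16% to 22.5% in live draining, 13.3% to 17% in the 2 fixed draining and 2.13% to 6.15% in naive libraries, and no non-draining library held enough PRCs. The naive shares rest on 1 to 4 Ndufa4l2 UMIs per library and the fixed draining ones on 6 and 8, against 57 to 67 in live draining libraries. Among the classes named here, pericytes and smooth muscle cells had the highest share of both forms.

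**Figure D4:**
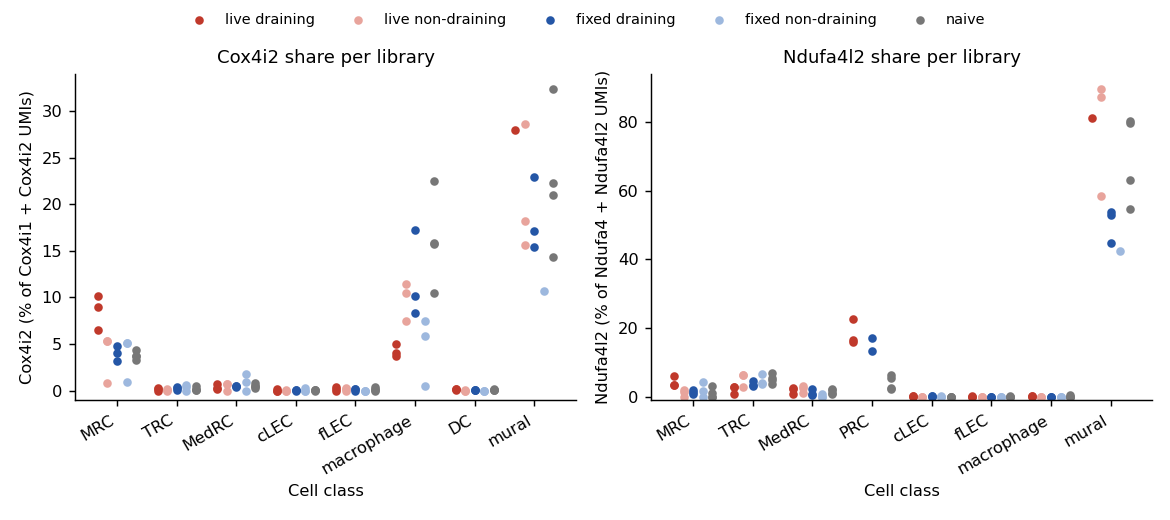
Share (%) of alternative forms among the UMIs of their subunit, by cell class and library, each point 1 library (mural, pericytes and smooth muscle cells). The median share of Cox4i2 is highest in pericytes and smooth muscle cells (19.6%), macrophages (9.25%) and MRCs (4.57%), and that of Ndufa4l2 in pericytes and smooth muscle cells (60.8%) and PRCs (13.3%).

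Other genes of the mitochondrion were read as lists for the live comparison. Of all genes tested, 8.17% rose in MRCs, 9.12% in cLECs, 10.7% in fLECs, 3.65% in TRCs and 3.81% in T cells. Those that fell were 6.59% in MRCs, 8.41% in cLECs, 4.57% in TRCs and 1.72% in T cells. In fLECs 2133 of 11150 genes were called in either direction. The subunits encoded by mitochondrial DNA number 13. Of these, in MRCs 0 of 13 rose and 1 fell (median log2 fold change -0.15), in cLECs 0 of 13 rose and 2 fell (median log2 fold change -0.17), in fLECs 2 of 13 rose and 0 fell (median log2 fold change 0.18), in TRCs 5 of 13 rose and 0 fell (median log2 fold change 0.34) and in T cells 0 of 13 rose and 0 fell (median log2 fold change -0.28). In cLECs mt-Nd4 fell (log2 fold change -0.42 ± 0.06 SE, adjusted p = 1.56e-05), and in TRCs it rose (log2 fold change 0.55 ± 0.06 SE, adjusted p = 5.05e-08). Complex II and the electron carriers, which the naming rule does not reach, had 5 of 9 higher and 0 lower in MRCs, 1 of 9 higher and 0 lower in cLECs, 1 of 9 higher and 0 lower in fLECs, 2 of 9 higher and 0 lower in TRCs and 2 of 9 higher and 0 lower in T cells, and in MRCs cytochrome c1 (Cyc1) had 0.70 ± 0.18 (SE, adjusted p = 0.00715) and cytochrome c (Cycs) 0.70 ± 0.19 (SE, adjusted p = 0.00762). Assembly factors had 3 of 35 higher and 0 lower in MRCs, 5 of 40 higher and 0 lower in cLECs, 1 of 40 higher and 1 lower in fLECs, 1 of 40 higher and 0 lower in TRCs and 0 of 30 higher and 0 lower in T cells. Mitochondrial ribosomes translate the subunits encoded by mitochondrial DNA. Their proteins had 17 of 76 higher and 0 lower in MRCs, 27 of 76 higher and 0 lower in cLECs, 8 of 76 higher and 0 lower in fLECs, 5 of 76 higher and 0 lower in TRCs and 6 of 73 higher and 0 lower in T cells, with Mrpl17 at 0.79 ± 0.12 (SE, adjusted p = 8.31e-06) in cLECs.

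Of the tricarboxylic acid cycle and pyruvate dehydrogenase there were 2 of 18 higher and 0 lower in MRCs, 3 of 18 higher and 0 lower in cLECs, 0 of 18 higher and 0 lower in fLECs, 2 of 18 higher and 0 lower in TRCs and 0 of 17 higher and 0 lower in T cells. Of the carriers and channels of the mitochondrial membranes there were 3 of 9 higher and 0 lower in MRCs, 4 of 9 higher and 0 lower in cLECs, 3 of 9 higher and 0 lower in fLECs, 1 of 9 higher and 0 lower in TRCs and 2 of 9 higher and 0 lower in T cells, with the ADP/ATP carrier Slc25a5 at 0.82 ± 0.13 (SE, adjusted p = 1.57e-05) in MRCs. Proteins made in the cytosol enter through the translocases of the outer and inner membrane. Of this import machinery there were 3 of 17 higher and 0 lower in MRCs, 3 of 18 higher and 0 lower in cLECs, 3 of 18 higher and 0 lower in fLECs, 1 of 18 higher and 0 lower in TRCs and 1 of 17 higher and 0 lower in T cells. Known regulators of mitochondrial biogenesis had 0 of 9 higher and 0 lower in MRCs, 0 of 11 higher and 2 lower in cLECs, 0 of 11 higher and 1 lower in fLECs, 0 of 12 higher and 0 lower in TRCs and 0 of 9 higher and 0 lower in T cells, where Ppargc1b (log2 fold change -0.71 ± 0.23 SE, adjusted p = 0.0267) and Gabpa (log2 fold change -0.39 ± 0.13 SE, adjusted p = 0.0313) fell in cLECs and Myc (log2 fold change -0.70 ± 0.15 SE, adjusted p = 0.000998) fell in fLECs.

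Outside the mitochondrion, glycolysis had 8 of 15 higher and 0 lower in MRCs, 7 of 14 higher and 0 lower in cLECs, 12 of 15 higher and 0 lower in fLECs, 2 of 15 higher and 1 lower in TRCs and 6 of 13 higher and 0 lower in T cells, with Ldha, which makes lactate, at 1.44 ± 0.13 (SE, adjusted p = 6.94e-10) in MRCs and 1.04 ± 0.10 (SE, adjusted p = 1.9e-09) in fLECs. Cytosolic ribosomal proteins had 75 of 86 higher and 0 lower in MRCs, 19 of 86 higher and 3 lower in cLECs, 0 of 86 higher and 21 lower in fLECs, 13 of 89 higher and 3 lower in TRCs and 51 of 85 higher and 0 lower in T cells, and proteasome core subunits 8 of 17 higher and 0 lower in MRCs, 15 of 17 higher and 0 lower in cLECs, 10 of 17 higher and 0 lower in fLECs, 1 of 17 higher and 1 lower in TRCs and 7 of 17 higher and 0 lower in T cells. Immediate early and dissociation stress genes had 0 of 13 higher and 4 lower in MRCs, 0 of 13 higher and 13 lower in cLECs, 0 of 13 higher and 13 lower in fLECs, 0 of 13 higher and 13 lower in TRCs and 0 of 13 higher and 0 lower in T cells, and Fos was at -1.39 ± 0.08 (SE, adjusted p = 8.16e-14) in cLECs. Several lists had shares near or below those of all genes. Among them were assembly factors in MRCs, fLECs, TRCs and T cells, and mitochondrial ribosomal proteins and the tricarboxylic acid cycle in fLECs. All lists were read in the same libraries as the members, and their part in the result was not tested.

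**Figure D5:**
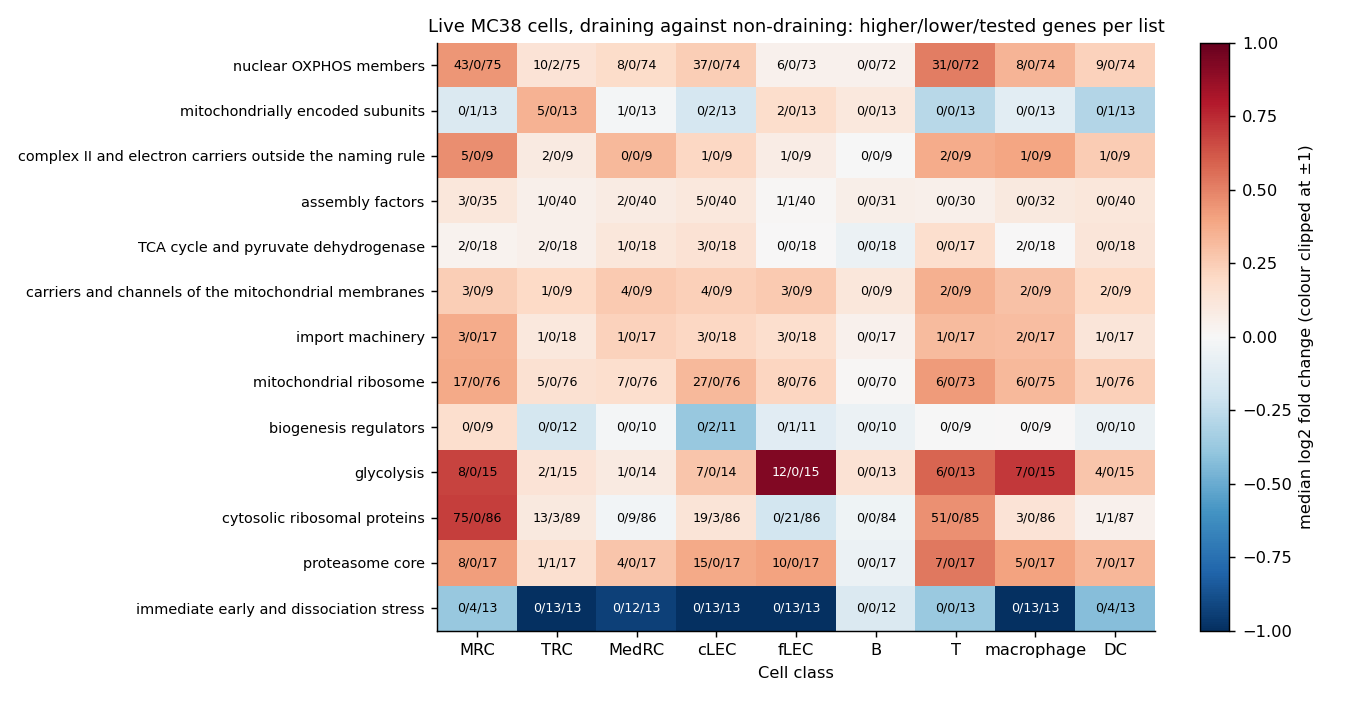
Median log2 fold change and number of called genes for the members tested and 12 other gene lists in each cell class, live draining against live non-draining nodes. The oxidative phosphorylation genes have a median of 0.44 in MRCs, where the cytosolic ribosomal proteins have 0.69.

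Promoter sequence was read because many members moved together. RefSeq windows (GRCm38.p6, 250 bases before to 50 after a start) were found for 65 of the 78 members and for 27025 genes in all, and were searched on both strands for letters known from factors of nuclear mitochondrial genes. The palindromic motif of nuclear respiratory factor 1 (NRF1), with 1 free base, was in 15 of 65 members (23.1%) and 5.19% of all genes. CCGGAAG, bound by ETS factors, was in 14 of 65 members (21.5%) and 9.93% of all genes, and AAGATGGCG, bound by YY1, in 8 of 65 members (12.3%) and 1.64% of all genes. ACGTG, the core of the hypoxia response element, was in 17 of 65 members (26.2%) and 21.8% of all genes, and TATAAA in 5 of 65 members (7.69%) and 15.7% of all genes. The windows of members had a median GC content of 57.3%, against 52.7% for all windows, and a match is a description of letters, not a site.

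The promoters of 4 members are shown, each printed 5′ to 3′ on the strand of the gene and ending just before the start, with matches in capitals. Atp5g1, the member called in most classes, is shown from chr11:96075632-96075751 (minus strand), with ACGTG in capitals. Ndufa11, a member that differed between inocula in cLECs, is shown from chr17:56717642-56717761 (plus strand), with NRF1 letters in capitals. Cox6a1, called in MRCs and cLECs, is shown from chr5:115348959-115349128 (minus strand), with NRF1 and ETS letters in capitals. Atp5j, called in MRCs, cLECs, T cells and DCs, is shown at 1 of its starts from chr16:84834977-84835096 (minus strand), with YY1 and ETS letters in capitals. This stretch lies inside the annotated gene (chr16:84827866-84835625). The stretch before its other start, chr16:84835626-84835745, adjoins the annotated 5′ end, held no match and is not shown.
Atp5g1: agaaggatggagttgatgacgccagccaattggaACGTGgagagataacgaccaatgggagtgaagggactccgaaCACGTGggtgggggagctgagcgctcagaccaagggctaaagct
Ndufa11: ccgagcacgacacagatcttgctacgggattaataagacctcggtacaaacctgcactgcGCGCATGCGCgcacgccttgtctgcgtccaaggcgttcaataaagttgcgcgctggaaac
Cox6a1: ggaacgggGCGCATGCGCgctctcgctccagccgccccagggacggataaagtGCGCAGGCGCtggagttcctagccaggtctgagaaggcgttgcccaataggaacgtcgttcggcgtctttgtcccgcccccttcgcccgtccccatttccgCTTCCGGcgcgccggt
Atp5j: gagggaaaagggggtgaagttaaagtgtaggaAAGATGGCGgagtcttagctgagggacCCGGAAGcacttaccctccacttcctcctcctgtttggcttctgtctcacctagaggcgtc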

How the data were processed

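Cells from 16 libraries were profiled with the 10x Genomics Chromium 3′ v3 kit. The authors aligned reads to mm10 with Cell Ranger 3.0.1 and deposited raw UMI counts per gene and barcode, 1 matrix per library, not normalized. Barcodes were kept from 200 to 6000 genes detected and up to 30% UMIs of mitochondrial genes, and gated on at least 3 lineage markers and 2 subset markers. Counts were summed per library and class (at least 10 cells) and tested with edgeR 4.0.16 (quasi-likelihood, filterByExpr, TMM, 5 groups in 1 fit, Benjamini-Hochberg adjustment, threshold 0.05), after the code was tested on simulated data. Alternatives were DESeq2 1.42.0, no filter, no TMM factors, the letter as a block, other cell filters, a stricter gate and leaving out each library. The members and lists were chosen with earlier results of these data known. Named were the 4 genes that mark the list, the 4 largest rises and falls per class at a mean log2 CPM of at least 5, alternative isoforms, the 4 smallest p-values of the difference per class and up to 3 genes per list. Library totals were 7486725 to 48945961 UMIs. The 78 members were placed on GRCm38 (GENCODE vM21) by Ensembl ID. Reads that also match processed pseudogenes of these genes cannot be told apart, so single levels are uncertain.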

Additional observations from a re-analysis of the deposited data

Results flagged for a closer look

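In 3 of 80 sets of naive libraries checked, 1 library lay far from the other 3: Ndufs8 in MedRCs was 62.8 CPM in naive B, Atp5g1 in T cells 211 CPM in naive D and Ndufab1 in macrophages 126 CPM in naive B. The limit used, Dixon's critical value, is set so that chance passes it in about 1 in 20 sets.

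The log2 fold change of draining over non-draining nodes differed between the inocula, by the test of the difference itself, for 40 members in cLECs (11.4% of all genes), 7 in MRCs (3.87%), 7 in T cells (1.36%), 7 in DCs (4.78%), 4 in fLECs (8.48%), 3 in macrophages (3.22%) and 2 in MedRCs (2.69%). The share in fLECs was below that of all genes, and those in macrophages and MedRCs were near it. In MRCs the difference on the log2 scale was 0.83 for Ndufb5, 0.86 for Atp5d, 0.77 for Uqcrb and 0.65 for Cox6a1. In MedRCs the difference on the log2 scale was 0.75 for Atp5o and 1.00 for Ndufs8. In fLECs the difference on the log2 scale was 0.67 for Uqcrc1, 0.50 for Ndufc1, 0.48 for Uqcrq and 0.45 for Cox5a. In cLECs the difference on the log2 scale was 0.76 for Atp5g1, 0.74 for Ndufv3, 0.64 for Ndufa11 and 0.54 for Atp5d. In T cells the difference on the log2 scale was 1.12 for Cox7a2l, 1.01 for Cox5b, 0.74 for Cox4i1 and 1.04 for Ndufb7. In macrophages the difference on the log2 scale was -2.35 for Cox4i2, 0.87 for Uqcrc1 and 0.88 for Atp5o. In DCs the difference on the log2 scale was 1.06 for Ndufa12, 1.02 for Ndufs7, 0.80 for Ndufb8 and 0.60 for Ndufa13.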

How the results depend on the processing

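Counts of called members are given where they moved by more than 1.5 times, for the live, the fixed or the difference comparison. With DESeq2 counts were 14 in macrophage and 5 in the rarer classes (live), 1 in macrophage (fixed), 18 in MRC, 4 in MedRC, 18 in T, 6 in macrophage, 12 in DC and 4 in the rarer classes (difference). With no upper limit on detected genes they were 17 in MedRC, 18 in fLEC, 3 in T, 24 in macrophage and 18 in the rarer classes (live), 29 in MRC, 4 in MedRC, 9 in fLEC, 5 in macrophage, 12 in DC and 0 in the rarer classes (difference). With the letter as a replicate block they were 6 in TRC, 4 in MedRC, 20 in T, 13 in macrophage, 1 in DC and 0 in the rarer classes (live), 1 in DC (fixed), 0 in MedRC, 4 in T and 4 in DC (difference). With mural genes read in the gate, added after seeing the data, they were 0 in TRC and 5 in MedRC (live), 0 in MedRC (difference). With a stricter gate they were 4 in MedRC, 22 in cLEC, 4 in macrophage, 0 in DC and 0 in the rarer classes (live), 0 in DC (fixed), 1 in TRC, 1 in MedRC, 1 in fLEC, 23 in cLEC, 4 in T, 3 in DC and 2 in the rarer classes (difference). With at most 10% mitochondrial UMIs they were 5 in MedRC, 9 in T, 0 in DC and 0 in the rarer classes (live), 1 in macrophage (fixed), 0 in MedRC, 0 in T, 1 in macrophage and 4 in DC (difference). Without TMM factors they were 9 in T, 5 in DC and 18 in the rarer classes (live), 4 in MedRC, 1 in T, 1 in macrophage, 11 in DC and 29 in the rarer classes (difference). With no filter on low counts they were 15 in macrophage and 4 in the rarer classes (live), 1 in macrophage (fixed), 3 in T and 5 in the rarer classes (difference). Leaving out 1 library at a time gave 31 to 44 in MRC, 4 to 18 in TRC, 3 to 12 in MedRC, 3 to 12 in fLEC, 15 to 50 in cLEC, 6 to 35 in T, 1 to 12 in macrophage, 1 to 15 in DC and 0 to 2 in the rarer classes for the live comparison, 3 to 16 in MRC, 0 to 7 in TRC, 0 to 5 in MedRC, 1 to 8 in fLEC, 22 to 50 in cLEC, 1 to 10 in T, 1 to 3 in macrophage, 4 to 17 in DC and 0 to 4 in the rarer classes for the difference and 0 to 4 in DC for the fixed comparison. Draining and non-draining nodes came from the same mice, but the labels do not say that a letter marks a mouse. The correlation of deviations of same-letter libraries was -0.0706 to 0.113, and no pairing by mouse was tested. For MRCs, mural genes in the gate left 4 to 8 cells in each live non-draining library, under the minimum of 10, and could not be fitted. Of the values of single members and summed levels, 1783 kept their direction and side of the threshold, 260 no longer passed it, 29 newly passed it, 55 moved and 0 reversed. The cause of these changes was not tested. The MRC counts rest on 22 to 59 cells in each live non-draining library.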
